A study of Mus musculus with 12 samples.

Results

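The 10 genes described here carry glucose from the medium to lactate, or control that flow: Hif1a, Slc2a1, Hk2, Pfkl, Pfkp, Pfkfb3, Aldoa, Pgk1, Ldha and Slc16a3. They were listed by name, with earlier results of these data known, and were matched through Ensembl identifiers to symbols among 48795 genes in the deposited counts. All 10 were among the 11228 genes with enough counts to be tested. RNA was sequenced from bone marrow-derived macrophages (BMDMs), cells that grow out of mouse bone marrow in culture with M-CSF. The mice were male C57BL/6NJ wild-type (WT) animals, given in the labels as C57BL/6, and Acod1-/- animals (C57BL/6NJ-Acod1em1(IMPC)J/J). Cells of each genotype received vehicle (PBS), urban particulate matter (PM) at 20 μg/cm2 for 24 hours, or 4-octyl itaconate (OI), an itaconate ester that enters cells, at 0.25 mM for 2 hours before the same PM exposure. These 6 groups held 2 libraries each, 12 in all. There was no group with OI and without PM, so every effect of OI below is an effect in cells that also received PM. The labels do not say whether the libraries of a group came from separate animals or cultures, so the spread between them may be technical. The p-values measure only this spread, which was estimated for each gene over all 6 groups together. An SE given for a comparison is thus not the spread of its own libraries alone. The SD of the log2 difference between libraries, over all genes tested, was 0.128 with vehicle in Acod1-/- and 0.38 with OI and PM in WT. The comparisons by genotype concern itaconate that cells make themselves, which needs the enzyme encoded by Acod1, and those with OI concern supplied itaconate. Acod1 RNA was itself lower with OI and PM than with PM (levels below), so the sources are not fully separated.

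Glycolysis splits glucose into pyruvate in the cytosol. Glucose enters through transporters such as GLUT1 (Slc2a1), is trapped by hexokinase (Hk2), and is committed to breakdown by phosphofructokinase (Pfkl and Pfkp encode subunits of it), whose activator fructose-2,6-bisphosphate is made by PFKFB3. Aldolase A (Aldoa) and phosphoglycerate kinase 1 (Pgk1) act further down, lactate dehydrogenase A (Ldha) turns pyruvate into lactate, and MCT4 (Slc16a3) exports the lactate. HIF-1, a pair of HIF-1α (Hif1a) and ARNT, binds the promoters of many of these genes. Prolyl hydroxylases mark HIF-1α protein for degradation through VHL when oxygen is present, so its activity is set largely at the protein and is not read by counts of Hif1a RNA. Macrophages exposed to inflammatory stimuli are known for a switch towards glycolysis and lactate.

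The libraries held 33616577 to 36817898 counts, and the 10 genes took 0.337% to 0.426% of them. The lowest count of any of the 10 in any library was 1198 (Pfkfb3 with OI and PM in WT). All 8 macrophage markers examined were tested, from Lyz2 and Cd68 to Adgre1 and Csf1r. Their summed level was 14280 to 14600 normalized CPM with vehicle, 23190 to 27340 with PM and 14430 to 16640 with OI and PM. Most of this sum was Lyz2, with means of 9992, 19460 and 10830 in WT in the same order. The sum therefore does not describe the other 7 markers. Normalized CPM are counts divided by a library size that TMM has scaled, on the usual CPM scale. Neutrophil markers summed to 5.98 to 6.59 with vehicle, 12.4 to 19.1 with PM and 29.5 to 61.0 with OI and PM, mainly through S100a8, whereas Ly6g was at 0 in 11 of the 12 libraries and Mpo and Elane never passed 0.191 and 0.114. Markers of T cells, B cells, dendritic cells and stromal cells summed to at most 4.04 in any library, and each erythroid and mast cell or basophil marker was at 0 in at least 10 libraries. What part these marker levels have in the values below was not tested. In bulk RNA, fewer cells of a type and less RNA per cell cannot be told apart.

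Acod1 itself was at 1.84 and 2.49 normalized CPM in the vehicle-treated WT libraries, at 181 and 170.3 with PM and at 32.6 and 57.1 with OI and PM. The libraries labelled Acod1-/- had 1.26 and 1.22 with vehicle, 108 and 94.1 with PM and 24.4 and 26.8 with OI and PM. In each treatment they lay below WT (log2 fold change -0.80 with PM, SE 0.203, adjusted p = 0.0807), but the RNA was still detected, and which part of the transcript was read is not visible in a gene-level count. The genotype is therefore used as labelled.

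Levels can be compared between genes only per kilobase of exonic sequence. On this scale Aldoa stood highest in vehicle-treated WT cells, at 482 ± 8.07 normalized CPM per kb (SD, n = 2, as for all means below), followed by Ldha at 272 ± 10. Slc2a1 came next at 50.3 ± 0.732, then Slc16a3 at 27.0 ± 1.39, Hif1a at 24.3 ± 0.0767 and Pfkl at 20.9 ± 0.485. Pgk1 was at 16.2 ± 1.18, Pfkp at 12.2 ± 0.341, Pfkfb3 at 10.4 ± 0.103 and Hk2 lowest at 8.80 ± 0.00946. No 2 neighbours in this order overlapped between the 2 libraries. Per kb, the liver-type subunit Pfkl stood above the platelet-type subunit Pfkp in every group, for example at 16.8 against 13.5 with OI and PM in WT. That order rests on the exonic lengths of 6675 and 13401 bases, since before division by length Pfkp was the higher of the pair in 4 of the 6 groups. Aldoa, Pgk1 and Ldha have near-identical copies among the genes counted, with at most 23 counts in any library for Aldoart1, 8 for Aldoart2, 10 for Pgk1-rs7, 5 for Ldha-ps and 9 for Ldha-ps2. How reads that match several places were counted is not given in the sources used here, so the levels of these 3 genes and their places in this order are uncertain. Gapdh, a glycolysis gene outside the 10 that has many copies in the genome and is usually abundant, had only 185 to 282 counts in a library. Exons of Hif1a, Slc2a1, Pfkp and Aldoa overlap those of Gm15283 and Gm49321, Gm12868, Pitrm1 and Fam57b. The use of strand in counting is not given either, so the levels and places of these genes are uncertain too.

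**Figure D1:**
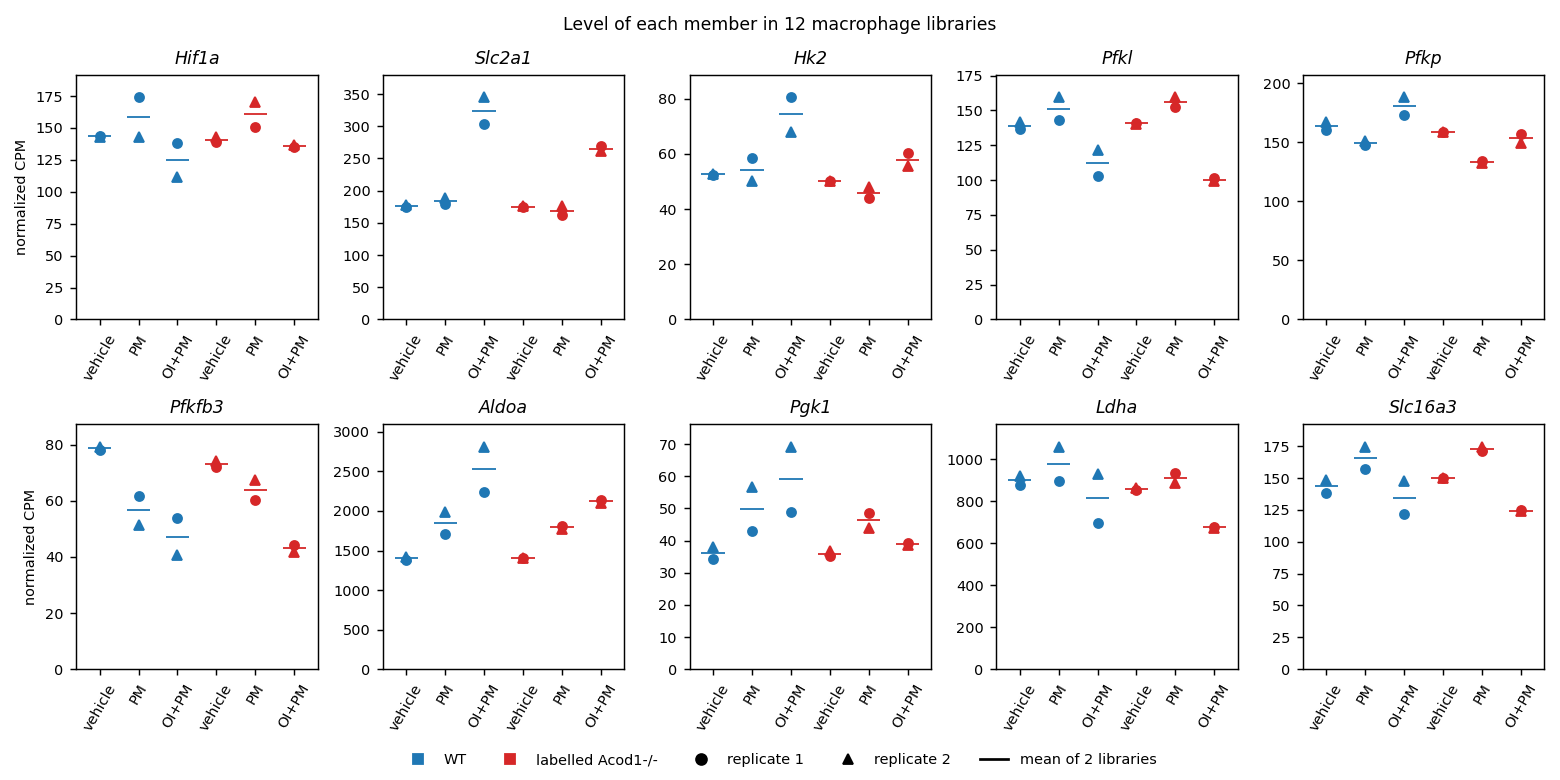
Normalized CPM (y axis, from 0) of each of the 10 genes in each library, with WT in blue and libraries labelled Acod1-/- in red, circles for replicate 1, triangles for replicate 2 and a line at the mean of 2 libraries. Slc2a1 stood between 163 and 189 without OI and between 262 and 346 with it, and the WT libraries with OI and PM lay further apart than those labelled Acod1-/-.

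In GRCm38 all 10 are protein-coding genes, with Hif1a at chr12:73901375-73947530 (+), Slc2a1 at chr4:119108711-119137983 (+), Hk2 at chr6:82725025-82774454 (-), Pfkl at chr10:77986947-78010083 (-), Pfkp at chr13:6579768-6648777 (-), Pfkfb3 at chr2:11471433-11554077 (-), Aldoa at chr7:126795234-126800751 (-), Pgk1 at chrX:106187100-106203699 (+), Ldha at chr7:46841475-46855627 (+) and Slc16a3 at chr11:120948480-120960868 (+). All 10 had a RefSeq promoter window (GRCm38.p6, 250 bases before to 50 after a transcription start), 14 windows in all because Pfkfb3, Aldoa and Ldha have more than 1 start. HIF-1 is known to bind the core letters ACGTG or GCGTG. At least 1 of these, on either strand, was found in a window of each of the 10 genes and in 13 of the 14 windows, against 43.8% of 32851 windows of the same length in the table. ACGTG was present for 8 of the 10 genes and GCGTG for 5, with both in some genes. Over all windows 19.6% held ACGTG and 32.4% GCGTG, but these shares are per window and the counts are per gene. A pair of Aldoa windows overlap, and CACGTG holds ACGTG on both strands. The letters TGACNNNGC, the core of the antioxidant response element that NRF2 is known to bind, were found in 1 of the 14 windows, of Aldoa, against 12.4% of all windows. Stretches are shown here for the 5 genes that were called with OI in both genotypes, and for Hif1a as the regulator. They run 5′ to 3′ on the strand of the gene, with ACGTG, its reverse complement CACGT or GCGTG in capitals. A match of letters is a description of the sequence and not evidence of binding.
Slc2a1, chr4:119108697-119108726 (+): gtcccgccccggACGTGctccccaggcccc
Hk2, chr6:82774474-82774533 (-): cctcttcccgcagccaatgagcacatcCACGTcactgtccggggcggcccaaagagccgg
Pfkp, chr13:6648777-6648806 (-): cgctcgggcgggGCGTGggcggctcctgcg
Pfkl, chr10:78009874-78009933 (-): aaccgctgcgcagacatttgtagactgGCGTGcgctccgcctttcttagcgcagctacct
Slc16a3, chr11:120949037-120949066 (+): gtgACGTGcgcgggggACGTGccgcgcgac
Hif1a, chr12:73907770-73907829 (+): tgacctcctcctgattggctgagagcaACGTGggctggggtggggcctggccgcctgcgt
Slc2a1, Hk2, Slc16a3 and Hif1a hold ACGTG in these stretches, and Pfkp and Pfkl, whose windows have no ACGTG, hold GCGTG.

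PM against vehicle asked whether 24 hours of PM changed the transcripts of the pathway. Of the 10 genes, Aldoa rose and Pfkfb3 fell in WT, and Aldoa rose and Pfkp fell in cells labelled Acod1-/-. A gene was called when its adjusted p in edgeR's quasi-likelihood test was 0.05 or less over all genes tested, which 12.6% of genes met as higher and 12.2% as lower in WT, and 12% and 11.9% in cells labelled Acod1-/-. With 1 of 10 in each direction, the shares among the 10 genes lay near these. None of the 10 changed by at least 2-fold, which 4.15% of all genes tested did in WT and 4.5% did in cells labelled Acod1-/-. The median log2 fold change of the 10 was 0.12 in both genotypes, against 0.01 and -0.00024 over all genes.

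Aldoa was at 1386 and 1419 normalized CPM in vehicle-treated WT libraries and at 1709 and 1989 with PM (log2 fold change 0.40, SE 0.101, adjusted p = 0.0183). In libraries labelled Acod1-/- it went from 1402 and 1404 to 1816 and 1766 (log2 fold change 0.35, SE 0.101, adjusted p = 0.0301). Both PM-treated libraries lay above both vehicle-treated ones in each genotype. In both genotypes the call was lost when single libraries were left out, with adjusted p up to 0.145 in WT and 0.151 in cells labelled Acod1-/-, while the direction held. Pgk1, the next enzyme of this branch in the set, went from 34.4 and 38.1 to 43.0 and 56.8 in WT (log2 fold change 0.46, adjusted p = 0.0661) and from 35.3 and 36.6 to 48.5 and 44.0 in cells labelled Acod1-/- (0.36, adjusted p = 0.139). It did not pass the test in either genotype, although the groups did not overlap, and in WT it passed under DESeq2 and with a correction for gene length. Leaving out 1 library at a time gave 0.25 to 0.64 for Pgk1 in WT.

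Pfkfb3 was at 78.2 and 79.3 with vehicle and at 61.8 and 51.5 with PM in WT (log2 fold change -0.48, SE 0.129, adjusted p = 0.0247). In libraries labelled Acod1-/- it was at 72.0 and 74.1 against 60.4 and 67.3 (-0.19, SE 0.128, adjusted p = 0.292). The groups did not overlap in either genotype, and the effect was not shown to differ between the genotypes (difference in log2 fold change 0.28, 95% interval -0.13 to 0.69, unadjusted p = 0.154 in edgeR). Pfkp was at 159.0 and 158.8 with vehicle and at 134 and 133 with PM in libraries labelled Acod1-/- (-0.25, SE 0.0615, adjusted p = 0.0143), and at 161 and 167 against 148 and 151 in WT (-0.13, adjusted p = 0.129). With its exonic length of 13401 bases Pfkp is the longest of the 10, and a correction for length brought the first of these values to -0.0018 and the second to 0.16, neither of them called. The calls of Pfkfb3 in WT and of Pfkp in cells labelled Acod1-/- were also lost when single libraries were left out, with adjusted p up to 0.18 for Pfkfb3.

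Slc2a1 and Hk2, at the entry of glucose, did not pass the test with PM in either genotype. Slc2a1 moved by 0.06 in WT (95% interval -0.099 to 0.22) and by -0.05 in cells labelled Acod1-/- (-0.21 to 0.11). Hk2 moved by 0.05 (-0.18 to 0.27) and -0.13 (-0.35 to 0.10). Hif1a, the regulator, was at 144 and 143 with vehicle and 174 and 143 with PM in WT, overlapping, and at 139 and 143 against 151 and 171 in libraries labelled Acod1-/-, with log2 fold changes of 0.14 and 0.19 and adjusted p of 0.36 and 0.25. Pfkl, Ldha and Slc16a3 had log2 fold changes between 0.09 and 0.21 in the 2 genotypes, and none was called.

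OI before PM was compared with PM alone. This comparison uses the same PM libraries as PM against vehicle, so the values of both are set side by side and not related to each other. More of the genes were called than with PM, in both directions. In both genotypes Slc2a1, Hk2 and Pfkp rose while Pfkl and Slc16a3 fell. In WT Aldoa also rose and Hif1a fell, and in cells labelled Acod1-/- Pfkfb3 and Ldha fell as well. That is 4 higher and 3 lower of 10 in WT, where 21.3% of all genes were called higher and 22.6% lower, and 3 higher and 4 lower in cells labelled Acod1-/-, where these shares were 13.9% and 20.6%. None of the 10 reached a 2-fold change, which 10.8% and 9.83% of all genes did. The median log2 fold change of the 10 was -0.01 in WT and -0.25 in cells labelled Acod1-/-, against 0.02 and -0.00056 over all genes. With total count scaling the median of all genes in WT was -0.11, and the share of calls that were higher went from 48.5% to 29.9% in WT and from 40.3% to 29.7% in cells labelled Acod1-/-. For PM this share went from 50.8% to 35.0% and from 50.1% to 37.1%, and for genotype with OI and PM from 36.1% to 53.4%.

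Slc2a1, which encodes the main glucose transporter of macrophages, had the largest change in size of the 10 in WT. In cells labelled Acod1-/- its change was close in size to that of Pfkl (-0.64). Slc2a1 was at 179.8 and 189 with PM and at 303 and 346 with OI and PM in WT (log2 fold change 0.82, or 1.76-fold, SE 0.0723, adjusted p = 1.05e-05). In libraries labelled Acod1-/- it went from 163 and 176 to 269 and 262 (0.65, 1.57-fold, SE 0.0723, adjusted p = 5.94e-05). All 4 libraries with OI stood above all 8 without it, and the call was kept in all 14 alternatives tried in each genotype. Hk2 rose from 58.4 and 50.2 to 80.7 and 68.1 in WT (0.46, adjusted p = 0.00457) and from 44.0 and 47.9 to 60.2 and 55.7 in cells labelled Acod1-/- (0.33, adjusted p = 0.0264). The groups did not overlap in either genotype, but the second call was lost without any 1 of the 4 libraries involved and with total count scaling.

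Of the phosphofructokinase genes, the platelet-type subunit rose and the liver-type subunit fell. Pfkp went from 148 and 151 to 173 and 189 in WT (0.28, SE 0.0614, adjusted p = 0.00503) and from 134 and 133 to 157 and 149 in cells labelled Acod1-/- (0.20, SE 0.0615, adjusted p = 0.0289). Pfkl went from 143 and 159 to 103 and 122 in WT (-0.43, SE 0.0852, adjusted p = 0.00248) and from 153 and 159.8 to 102 and 99.2 in cells labelled Acod1-/- (-0.64, SE 0.0854, adjusted p = 0.000221). Within each genotype, no library with OI overlapped the libraries with PM alone for either gene. With total count scaling Pfkp was no longer called in either genotype, and with the correction for gene length it was no longer called in cells labelled Acod1-/-, where leaving out any 1 of the 4 libraries ended the call too. The call of Pfkl in cells labelled Acod1-/- was kept in all 14 alternatives. Pfkfb3, which makes the activator of phosphofructokinase, was at 53.9 and 40.5 with OI against 61.8 and 51.5 without it in WT (-0.26, adjusted p = 0.127). The libraries overlapped, although Pfkfb3 was lower with OI in each same-numbered library. It was called without OI+PM replicate 1 (-0.48) and was at -0.0726 without replicate 2. In cells labelled Acod1-/- it fell to 44.2 and 41.8 from 60.4 and 67.3 (-0.57, SE 0.130, adjusted p = 0.00663), a call lost without replicate 2 of either group (adjusted p up to 0.0573).

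**Figure D2:**
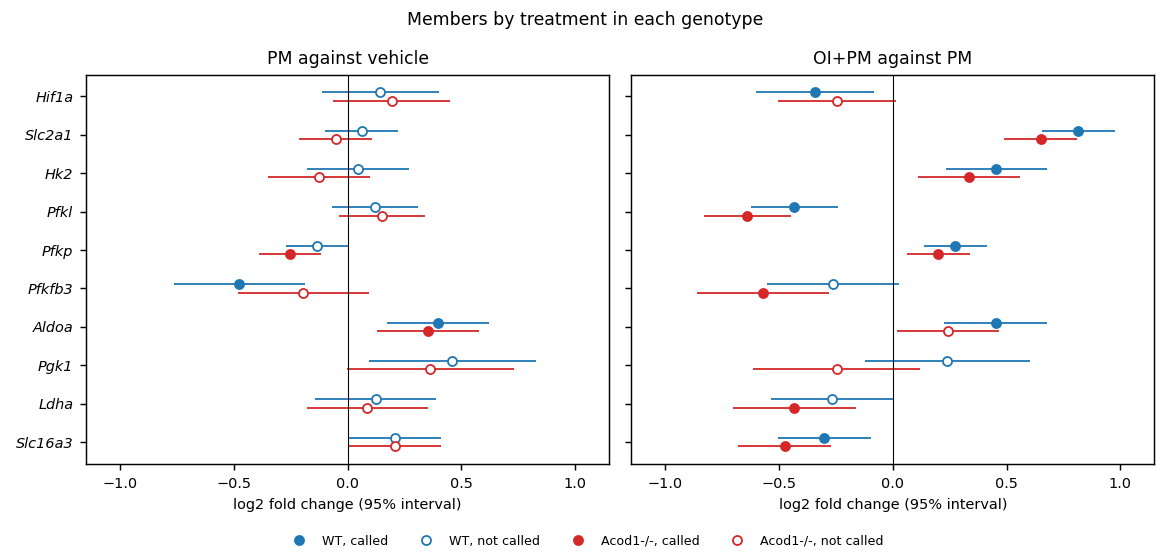
Log2 fold change (x axis) of each of the 10 genes for PM against vehicle (left) and OI with PM against PM (right), in WT (blue) and in libraries labelled Acod1-/- (red), with 95% intervals from the edgeR fit and filled points for adjusted p of 0.05 or less. With PM the called genes were Aldoa, Pfkfb3 and Pfkp, and with OI Slc2a1, Hk2 and Pfkp lay to the right of 0 and Pfkl and Slc16a3 to the left in both genotypes.

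At the lower end of the pathway, Aldoa rose with OI in WT, and Slc16a3 fell in both genotypes. Aldoa reached 2244 and 2815 with OI from 1709 and 1989 with PM in WT (0.45, SE 0.101, adjusted p = 0.00499, or 0.28 without OI+PM replicate 2 and still called), and 2139 and 2102 from 1816 and 1766 in cells labelled Acod1-/- (0.24, adjusted p = 0.0899). The second difference was not called, although the libraries did not overlap. Ldha went from 935 and 889.6 to 680.4 and 672 in cells labelled Acod1-/- (-0.43, SE 0.120, adjusted p = 0.0185), a call that was lost without any 1 of these 4 libraries (adjusted p up to 0.0981). In WT it was at 899 and 1062 with PM and at 699 and 932 with OI (-0.27, adjusted p = 0.0979), with overlap between the groups and a lower value with OI in each same-numbered library. This difference was called with total count scaling, with the length correction, with a replicate block that swaps replicates 1 and 2 of Acod1-/- cells with PM (chosen after seeing the data), and without PM replicate 1 or OI+PM replicate 2. Leaving out 1 library at a time gave -0.49 to -0.0732 for Ldha. Slc16a3 fell from 157 and 174 to 122 and 148 in WT (-0.30, SE 0.0911, adjusted p = 0.0228) and from 171 and 175 to 125 and 124 in cells labelled Acod1-/- (-0.47, SE 0.0912, adjusted p = 0.00245). The call in cells labelled Acod1-/- was kept in all 14 alternatives, whereas that in WT was lost without PM replicate 2 or without OI+PM replicate 1, where Slc16a3 was at -0.17. Pgk1 had log2 fold changes of 0.24 in WT and -0.25 in cells labelled Acod1-/-, and neither was called. In WT its value ranged from -0.033 to 0.47 as single libraries were left out.

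Hif1a was at 174 and 143 with PM and at 139 and 112 with OI and PM in WT (-0.34, SE 0.116, adjusted p = 0.0368). In libraries labelled Acod1-/- it was at 151 and 171 against 135 and 137 (-0.24, SE 0.116, adjusted p = 0.135). The groups did not overlap in either genotype. In WT the call was lost without PM replicate 1 and without OI+PM replicate 2 (adjusted p up to 0.268), and the log2 fold change of Hif1a ranged from -0.50 to -0.20 as single libraries were left out.

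The WT libraries with OI and PM were the most unlike each other of any group. Between them the 10 genes differed by up to 0.51 on the log2 scale, in Pgk1, which was at 48.8 in replicate 1 and 69.2 in replicate 2. In replicate 2, 7 of the 10 were higher, among them the short Pgk1, Ldha and Aldoa but also Pfkl (0.24) and the longest, Pfkp (0.12), and Pfkfb3, Hif1a and Hk2 were lower. Shorter genes tended to be higher in replicate 2 across the whole table (Spearman's rho of the difference against length -0.61 over 11214 genes, which do not count as replicates). The rho was -0.60 for the WT libraries with PM, 0.36 for those labelled Acod1-/- with PM, and between -0.29 and 0.08 in the other groups. A fit with a correction for gene length called 4 of the 10 higher and 5 lower with OI in WT, adding Pfkfb3 and Ldha to the 7 named above. In cells labelled Acod1-/- it called 3 higher (Slc2a1, Hk2 and Aldoa) and 6 lower, with Hif1a and Pgk1 added. When only the 4 WT libraries compared were fitted, Slc2a1 alone of the 10 was called (adjusted p = 0.00812). The same fit in cells labelled Acod1-/- called all 10, with 4 higher and 6 lower. Among these were Aldoa (higher), Hif1a and Pgk1 (lower), which the main fit did not call there.

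**Figure D3:**
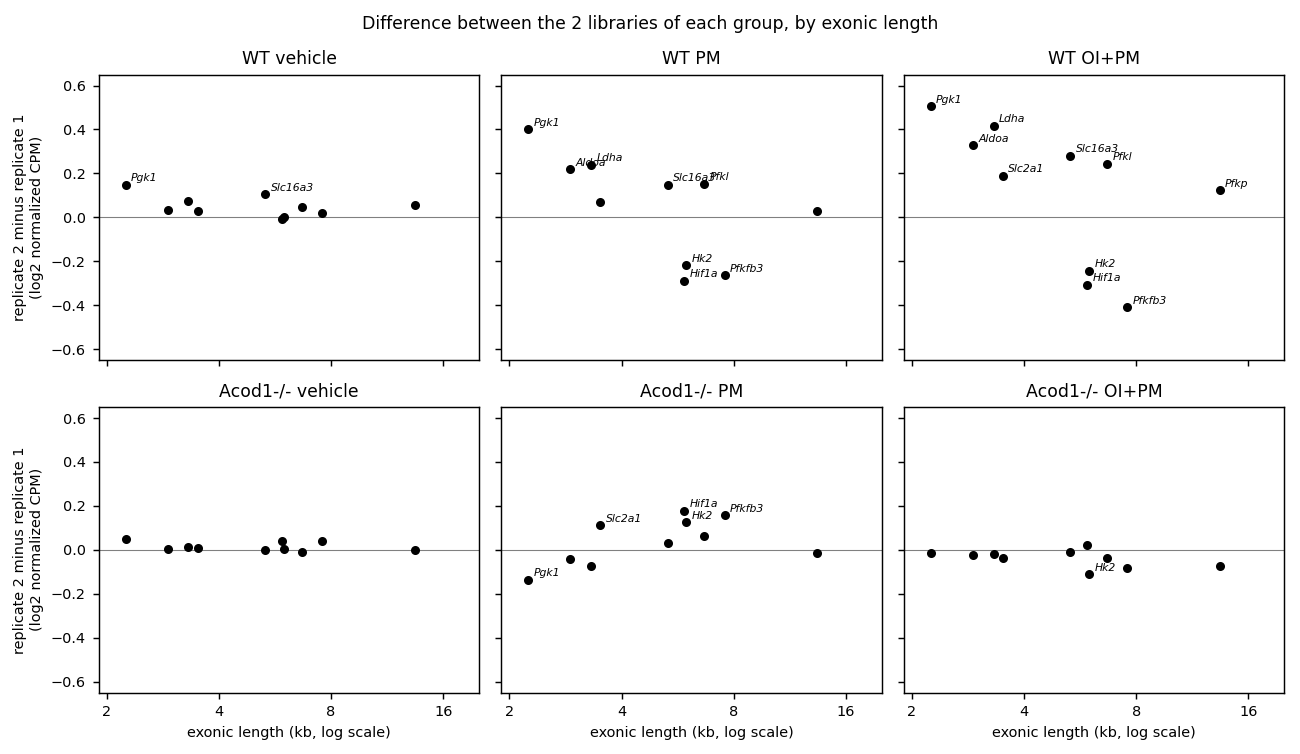
Difference between the libraries of each group (y axis, replicate 2 minus replicate 1, log2 normalized CPM) against the exonic length of each of the 10 genes (x axis, kb, log scale), with names where the difference is at least 0.1. In WT with PM and with OI and PM, Pgk1, Ldha and Aldoa lay above 0 and Hif1a, Hk2 and Pfkfb3 below it. In the groups with vehicle the largest difference was 0.15, for Pgk1 in WT.

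Whether loss of Acod1 changed these transcripts was asked within each treatment. With vehicle, 0 of the 10 genes were called by edgeR or by DESeq2, and 0 had an unadjusted p below 0.05, where 0.891% of all genes were called higher, 0.935% lower and 0.481% by at least 2-fold. Their log2 fold changes lay between -0.11 (Pfkfb3) and 0.06 (Slc16a3). With PM, 0 of the 10 were called by either tool and 2 had an unadjusted p below 0.05, Hk2 (-0.24, adjusted p = 0.319) and Pfkp (-0.16, adjusted p = 0.256), where 1.1% of all genes were called higher, 1.3% lower and 0.561% by at least 2-fold. The 95% interval with PM was widest for Pgk1, from -0.48 to 0.25.

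With OI and PM, Slc2a1 and Pfkp were lower in cells labelled Acod1-/- than in WT. Slc2a1 was at 269 and 262 against 303 and 346 (-0.29, SE 0.0718, adjusted p = 0.0417), and Pfkp at 157 and 149 against 173 and 189 (-0.24, SE 0.0614, adjusted p = 0.0472). In this comparison 2.51% of all genes were called higher, 4.45% lower and 0.917% by at least 2-fold. Hk2 (-0.36, adjusted p = 0.0583) and Pgk1 (-0.60, adjusted p = 0.0575) did not pass. DESeq2 called both, as did the length correction with and without the replicate block, and the block with swapped replicates. The plain replicate block called Pgk1. Leaving out 1 library at a time gave -0.48 to -0.23 for Hk2 and -0.83 to -0.32 for Pgk1. The call of Pfkp was kept in 5 of 14 alternatives and was lost with RLE or total count scaling, with either other filter and with the replicate block, and that of Slc2a1 was kept in 8, with -0.19 and no call without WT OI+PM replicate 2. Of the 10 genes, 7 were lower in both libraries labelled Acod1-/- than in both WT libraries, which held for 29.1% of all genes. The calls of Slc2a1 and Pfkp depended on single libraries of both genotypes. As 1 library at a time was left out, Slc2a1 ranged from -0.38 to -0.19 and Pfkp from -0.30 to -0.18. Without either library labelled Acod1-/-, 0 of the 10 were called, and with the 4 compared libraries alone 0 of the 10 and 2 of all genes were.

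The difference between the genotypes in the effect of PM, and in the effect of OI, was tested as an interaction. Over all genes, 0% passed for PM and 0% for OI in edgeR, with 273 and 717 genes at an unadjusted p below 0.05, and DESeq2 called 3 and 34. None of the 10 had an unadjusted p below 0.05 in either. For OI the largest difference in size was in Pgk1, -0.49 (95% interval -1.004 to 0.03, unadjusted p = 0.0622). Leaving out 1 library at a time gave -0.72 to -0.21 for this difference. For Slc2a1 the effect of OI was smaller by 0.17 in cells labelled Acod1-/-, with an interval of the difference from -0.39 to 0.06.

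**Figure D4:**
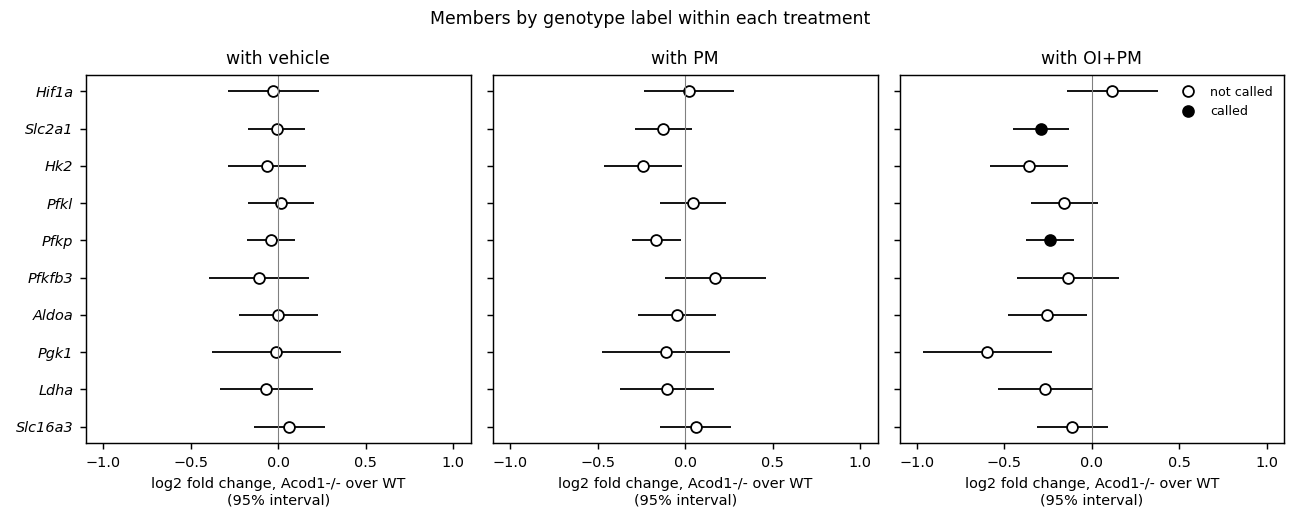
Log2 fold change of cells labelled Acod1-/- over WT (x axis) for each of the 10 genes with vehicle, PM, or OI and PM, with 95% intervals from the edgeR fit and filled points for adjusted p of 0.05 or less. The points lay near 0 with vehicle, and with OI and PM 9 of the 10 lay below 0, of which Slc2a1 and Pfkp were called.

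The rest of the pathway was described from lists of named genes. Of 28 other glycolysis genes 23 were tested. With PM, 6 were called higher and 2 lower in WT, and 2 higher and 3 lower in cells labelled Acod1-/-, with medians of 0.05 and -0.0028. The shares over all genes were the 12.6% and 12.2%, and 12% and 11.9%, given above for PM, and they apply to each list below. Where a gene was called in 1 genotype, a difference from the other genotype was not shown, since 0 genes passed the interaction tests in edgeR (273 and 717 at an unadjusted p below 0.05, and 3 and 34 called by DESeq2). Slc2a6, the gene of the lysosomal transporter GLUT6, stood out by size. It was at 6.04 and 6.67 with vehicle and at 29.3 and 35.8 with PM in WT (2.36, SE 0.158, adjusted p = 5.05e-06), and it rose by 2.33 in cells labelled Acod1-/-. With OI and PM it was lower, at 6.14 and 8.83 in WT (-2.13, adjusted p = 2.66e-06) and at 10.7 and 12.01 in cells labelled Acod1-/- (-1.93). Slc2a1 and Slc2a6 thus moved in opposite directions with OI in both genotypes. Slc2a3, the gene of the transporter GLUT3, fell with PM, by 0.80 in WT from 3.90 and 4.05 to 2.31 and 2.25, and by 0.95 in cells labelled Acod1-/-. Aldoc, the gene of another aldolase, rose with PM in both genotypes (0.37 and 0.44). Eno3 rose in WT (0.55) and had a log2 fold change of 0.38 in cells labelled Acod1-/- (adjusted p = 0.115).

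With OI, 5 of the 23 were called higher and 5 lower in WT, and 3 in each direction in cells labelled Acod1-/-, with medians of -0.01 and -0.08. Over all genes 21.3% were higher and 22.6% lower with OI in WT, and 13.9% and 20.6% in cells labelled Acod1-/-. Pkm, the gene of pyruvate kinase M, went from 1669 and 1937 to 2424 and 3031 in WT (0.60, SE 0.0998, adjusted p = 0.000903), and it rose by 0.42 in cells labelled Acod1-/-. Pfkfb1 fell by 1.105 in WT and by 0.87 in cells labelled Acod1-/-, and Slc16a1, the gene of the lactate transporter MCT1, rose in both genotypes (0.40 and 0.52), where Slc16a3 fell. By genotype, Slc2a3 was higher in cells labelled Acod1-/- with vehicle (0.59, adjusted p = 0.0116) and with OI and PM (0.79, adjusted p = 0.00739). With OI and PM, Slc16a7 was also higher (0.55) and Aldoc lower (-0.36), and Hk3, named after its value was seen, was lower too (-0.28).

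**Figure D5:**
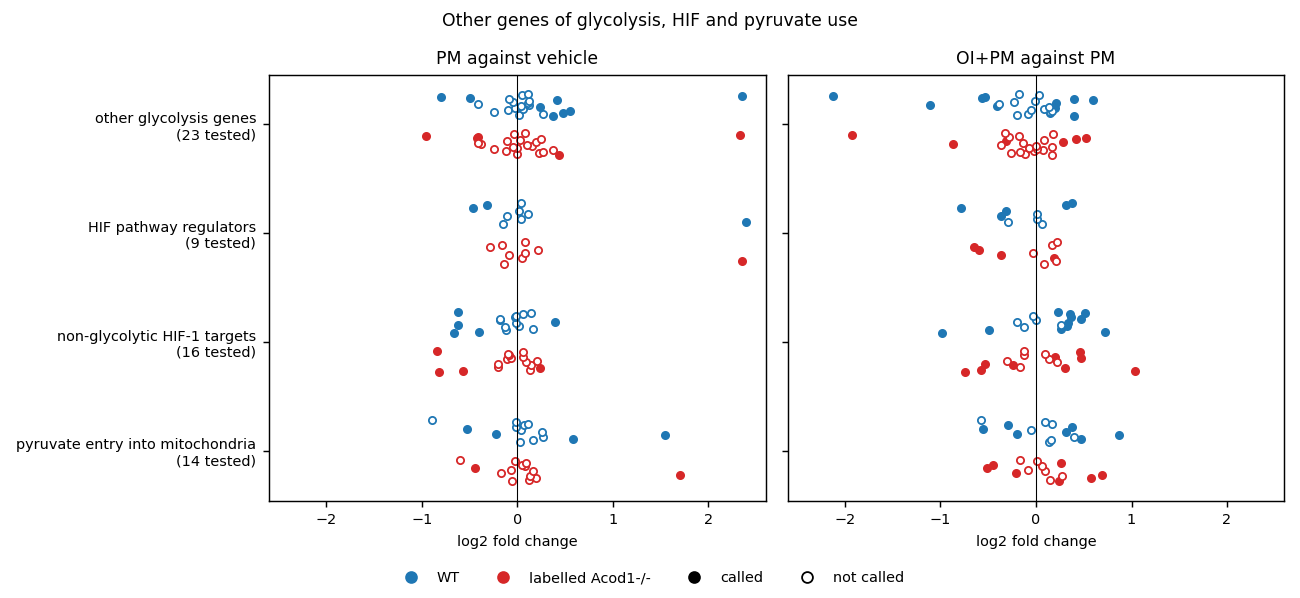
Log2 fold change (x axis) of each tested gene of 4 further lists (rows) for PM against vehicle (left) and OI with PM against PM (right), in WT (blue) and in libraries labelled Acod1-/- (red), filled where the adjusted p was 0.05 or less. Slc2a6 and Arnt2 lay above 2 with PM in both genotypes, and Slc2a6 lay near -2 with OI.

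Genes that act on HIF, 9 tested of 10, included Arnt2, a partner of HIF-α proteins, which rose with PM from 0.561 and 0.356 to 2.57 and 2.25 in WT (2.39, adjusted p = 6.26e-05) and by 2.35 in cells labelled Acod1-/-. These levels are low, and exons of Arnt2 overlap the antisense gene Gm30873. In WT, 1 of the 9 was higher with PM and 2 were lower, Epas1, which encodes HIF-2α (-0.46), and Hif1an, which encodes an asparaginyl hydroxylase that inhibits HIF (-0.32). In cells labelled Acod1-/- only Arnt2 was called with PM, and Epas1 and Hif1an had -0.29 and -0.16 (adjusted p = 0.157 and 0.206). OI lowered Epas1 in WT, from 29.3 and 23.9 to 17.3 and 13.7 (-0.78, adjusted p = 0.00146), and in cells labelled Acod1-/- (-0.65). It also lowered Egln1, the gene of the main prolyl hydroxylase, by 0.37 in both genotypes. Egln3, an inducible prolyl hydroxylase, fell in both genotypes (-0.32 and -0.59). Vhl rose in WT (0.37) and had 0.21 in cells labelled Acod1-/- (adjusted p = 0.0608). In all, 2 were higher and 3 lower with OI in WT, and 1 was higher and 3 lower in cells labelled Acod1-/-, beside 21.3% and 22.6%, and 13.9% and 20.6%, of all genes. Egln3 was lower in cells labelled Acod1-/- than in WT in each treatment, at 14.7 and 14.2 against 22.3 and 23.3 with vehicle (-0.66, adjusted p = 0.00694), by 0.45 with PM and by 0.73 with OI and PM, and no other gene of this list was called by genotype.

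Of 19 targets of HIF-1 outside glycolysis, 16 were tested. With PM, 1 was higher and 4 lower in WT, and 1 higher and 3 lower in cells labelled Acod1-/-, with medians of -0.07 and -0.08. Vegfa, the gene of a vascular growth factor, fell from 143 and 150.4 to 95.8 and 95.6 in WT (-0.62, adjusted p = 0.000567) and by 0.84 in cells labelled Acod1-/-. Ankrd37 fell with PM in both genotypes (-0.66 and -0.82), as did Bhlhe40, the gene of a transcriptional repressor (-0.40 and -0.57). Ddit4, the gene of an inhibitor of mTORC1, fell in WT (-0.63) and had -0.20 in cells labelled Acod1-/- (adjusted p = 0.384). With OI, 9 of 16 were higher and 2 lower in WT, where 21.3% of all genes were higher and 22.6% lower, and 5 were higher and 4 lower in cells labelled Acod1-/- (13.9% and 20.6%). The medians were 0.26 and -0.02. These counts depend on how the lists were divided. Pdk1, a HIF-1 target counted in a list below, was not among the 16 and fell with OI (-0.55 and -0.51). Bhlhe40 rose from 41.2 and 42.1 to 68.2 and 68.9 in WT (0.72, adjusted p = 1.2e-05) and by 1.04 in cells labelled Acod1-/-, and Plin2, the gene of a lipid droplet protein, rose in both (0.51 and 0.46). Ankrd37 fell further with OI (-0.98 and -0.75), and Bnip3, the gene of a mitophagy receptor, fell in both genotypes (-0.50 and -0.58). P4ha2, the gene of a collagen prolyl hydroxylase, was lower in cells labelled Acod1-/- in each treatment, by 0.57 with vehicle, 0.72 with PM and 0.99 with OI and PM. Bhlhe40 was also lower by 0.45 with PM, and with OI and PM 4 of the 16 were called lower, where 4.45% of all genes were, including Plin2 (-0.38) and Ndrg1 (-0.32). Exons of Ankrd37, Bhlhe40, Bnip3 and Ndrg1 overlap those of other genes, as do those of Pkm, Pfkfb1, Hk3, Slc16a7 and Mpc1 in the other lists.

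The fate of pyruvate in mitochondria was read from 15 genes, 14 of them tested. Pcx, the gene of pyruvate carboxylase, rose with PM from 3.23 and 2.75 to 8.46 and 8.96 in WT (1.54, adjusted p = 6.08e-05) and by 1.71 in cells labelled Acod1-/-, and rose again with OI to 15.0 and 16.8 in WT (0.87, adjusted p = 0.000452) and by 0.69 in cells labelled Acod1-/-. Pdk1, a HIF-1 target whose kinase shuts off pyruvate dehydrogenase, fell in all 4 comparisons. It went from 188 and 187 with vehicle to 134 and 126 with PM and 93.2 and 84.1 with OI and PM in WT (-0.53 and -0.55), and in cells labelled Acod1-/- it fell by 0.45 and 0.51. Mpc1, the gene of a subunit of the mitochondrial pyruvate carrier, rose with OI in both genotypes (0.47 and 0.58) and with PM in WT (0.59), with 0.20 for PM in cells labelled Acod1-/- (adjusted p = 0.371). Over the list, 2 were higher and 2 lower with PM in WT, 1 and 1 with PM in cells labelled Acod1-/-, and 4 higher and 3 lower with OI in each genotype. The shares over all genes were 12.6% and 12.2%, 12% and 11.9%, 21.3% and 22.6%, and 13.9% and 20.6% in the same order.

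Across the 12 libraries, the tested gene whose log2 normalized CPM followed each of the 10 most closely was found by Pearson's r, given as a description because the 6 groups and their libraries are shared. The closest pair was Aldoa with Atp6v0b (r = 0.998), the gene of a vacuolar proton pump subunit. Slc2a1 followed Bri3bp (0.993), Pfkl followed Apobr (0.989) and Pgk1 followed Ndufa3 (0.986). For Pfkfb3 it was Tecpr2 (0.979), for Ldha Ifi27 (0.979), for Hk2 Pnpla6 (0.977), for Pfkp Rgs1 (0.975), for Slc16a3 Arhgdia (0.974) and for Hif1a 2510009E07Rik (0.941). None of these nearest genes is one of the 10. For Pgk1, however, the glycolysis gene Eno1 came second and almost level with Ndufa3 (r = 0.9857 against 0.9859).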

How the data were processed

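The authors deposited whole-number counts for each gene, made from single-end 50 bp reads mapped to GRCm38 with STAR 2.5.3a and counted with featureCounts. The submitters' processing notes also name FastQC 0.11.5, Picard 2.9.0 and DESeq2. Annotation release, strand and multiple mapping are not given in the sources used here. Identifiers were matched to symbols for 48349 of 48795 genes, and positions and exonic lengths came from GENCODE vM21 (GRCm38).

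Genes with CPM above 1.5 in at least 2 of 12 libraries were tested (11228). All 12 libraries entered 1 fit in edgeR 4.0.16 (R 4.3.3) by its quasi-likelihood method with TMM and a mean per group, and p-values were adjusted by Benjamini-Hochberg over all genes tested. SE is the log2 fold change over the root of F. The study's methods use DESeq2 with a 2-fold threshold besides the adjusted p. DESeq2 (1.42.0) was an alternative here, with the adjusted p alone. Other alternatives were RLE and total count scaling, 2 filters, the compared groups only, a replicate block, a length correction (lowess, span 0.3), both together, and leaving out each library. The steps were tested on simulated counts for PM against vehicle in WT. These had no differences by gene length between libraries and the same spread in all groups. That run therefore cannot show how such features of the data affect the calls. Promoter windows are from RefSeq.

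The 10 genes and the lists were chosen with earlier results of these data known. Named genes are the 10 in every comparison, Acod1, the nearest gene of each by Pearson's r, and the 3 called genes with the largest log2 fold changes per list and comparison. Marker genes, gene copies, genes with overlapping exons, Gapdh, Eno1 and Hk3 are named besides these, Eno1 and Hk3 after their values were seen.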

Additional observations from a re-analysis of the deposited data

How the results depend on the processing

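Of 20 calls among the 10 genes, 4 held in all 14 alternatives (Slc2a1 with OI in both genotypes, Pfkl and Slc16a3 with OI in cells labelled Acod1-/-), and 19 kept their direction in all, the exception being Pfkp with PM in cells labelled Acod1-/-. There were 2 libraries per group. The cause of the changes below was not tested, except that fewer libraries enter a fit of the compared groups or without a library. With 1 library left in a group, it was assumed to vary like the other groups. The main numbers of genes called were 2782 and 2684 for PM in WT and Acod1-/- cells, 4926 and 3881 for OI, and 205, 269 and 782 for genotype with vehicle, PM, and OI and PM.

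With a 2-fold threshold added, 0 of the 10 were called in any comparison. DESeq2 called 2 of the 10 higher with PM in WT, 4 lower by genotype with OI and PM, and 434 and 1321 genes by genotype with PM and with OI and PM, and 3 and 34 for the interactions. It gave Aldoa by genotype with vehicle as -0.00417, as did RLE scaling, which called 1 lower by genotype with OI and PM. Total count scaling called 2 lower with PM in WT, 1 higher with OI in Acod1-/- cells and 0 lower by genotype with OI and PM, and turned Slc2a1 (-0.0297) and Hk2 (-0.0449) with PM in WT and Aldoa by genotype with vehicle (-0.000567). A filter of 10 counts called 0 lower by genotype with OI and PM (Aldoa with vehicle -0.00435), and CPM above 1.5 in all libraries called 1 (Aldoa -0.00294) and 133 genes with vehicle.

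With the compared groups alone, 5 were higher and 2 lower with PM in Acod1-/- cells (5658 genes), and 1 higher and 0 lower with OI in WT (1939 genes), but 4 higher and 6 lower, all 10, with OI in Acod1-/- cells (5789 genes). By genotype, 1 was lower with vehicle (2316 genes, Aldoa -0.0104), 174 genes were called with PM, and 0 of the 10 and 2 genes with OI and PM.

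The labels do not say what a replicate number shares. Deviations of same-numbered libraries had r of 0.227, 0.237 and 0.73 among the WT groups, -0.0945 to -0.0358 among the Acod1-/- groups and -0.41 to 0.25 between genotypes, so the numbers were not taken as pairs. The replicate block called 2 higher with PM in WT, adding Pgk1. The block with the numbers of PM-treated Acod1-/- libraries exchanged, chosen after seeing the data, called 2 higher with PM in each genotype. It added Ldha to the genes lower with OI in WT and Aldoa to those higher with OI in Acod1-/- cells. By genotype with OI and PM it called 4 lower and 1872 genes.

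The length correction called 2 higher with PM in WT, 0 lower with PM in Acod1-/- cells, 5 lower with OI in WT, 4 lower by genotype with OI and PM, and 373, 590 and 1724 genes by genotype, with 21 for the OI interaction. It turned Slc2a1 (-0.0115) and Pfkp (0.16) with PM in WT and Slc16a3 in the PM interaction (-0.00199). With the replicate block added it called 3 higher with PM in WT, 2 higher and 0 lower with PM in Acod1-/- cells, 5 lower with OI in WT, 4 lower by genotype with OI and PM, and 372, 599 and 1897 genes by genotype, with 15 for the OI interaction. Slc2a1 (-0.0114), Pfkp (0.16) and Slc16a3 (-0.00162) turned again, and Pfkp with PM in Acod1-/- cells was 0.000192.

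Leaving out 1 library at a time, PM in WT gave 0 to 2 higher, 0 to 1 lower and 1187 to 3447 genes, with Hif1a -0.0104 to 0.28, Hk2 -0.0701 to 0.15 and Ldha -0.00184 to 0.24. PM in Acod1-/- cells gave 0 higher, 0 lower and 1391 to 1707 genes, with Slc2a1 -0.11 to 0.00215. OI in WT gave Pgk1 -0.033 to 0.47, and OI in Acod1-/- cells gave 1 higher and 2 to 3 lower. By genotype with vehicle, 52 to 63 genes were called, with Slc2a1 -0.0247 to 0.00494, Pfkl -0.00831 to 0.0391, Aldoa -0.0166 to 0.0176 and Pgk1 -0.0846 to 0.0643. With PM, 74 to 153 were called, with Hif1a -0.12 to 0.17, Pfkl -0.0308 to 0.13, Aldoa -0.15 to 0.0676, Pgk1 -0.30 to 0.10, Ldha -0.22 to 0.0210 and Slc16a3 -0.0130 to 0.14. With OI and PM, 0 to 7 were lower and 95 to 5452 genes called, the highest without WT OI+PM replicate 1, with Hif1a -0.0284 to 0.28, Pfkfb3 -0.33 to 0.0847 and Slc16a3 -0.25 to 0.0345. The PM interaction gave Hif1a -0.0880 to 0.20, Pfkl -0.0409 to 0.11, Aldoa -0.15 to 0.0672, Pgk1 -0.28 to 0.12, Ldha -0.15 to 0.0893 and Slc16a3 -0.0692 to 0.0757. The OI interaction gave 0 to 1 lower and 0 to 525 genes, with Hif1a -0.0489 to 0.26, Hk2 -0.24 to 0.00701 and Ldha -0.36 to 0.0568. Of the other values for single genes, 1177 kept direction and side of the threshold, 59 lost a call and 52 gained one.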
